A study of Mus musculus with 8 samples.

Results

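Hepcidin and 9 other genes of iron handling (Hamp, Tfrc, Trf, Fth1, Ftl1, Slc40a1, Slc11a2, Hfe, Cp and Hmox1) were looked up in liver arrays of 8 calorie-restricted Ames dwarf mice, and 7 of the 10 could be followed. Probe sets were taken as members where the array annotation gave exactly 1 gene symbol and it was one of these 10, control probe sets were left out, and the probe set with the highest mean over the 8 arrays stood for its gene. This left 7 genes, Hamp, Hfe, Tfrc, Slc11a2, Fth1, Cp and Hmox1, out of 8251 named genes with a probe set. Trf and Slc40a1 had no probe set under that rule and were not analysed here, and Ftl1 shared its probe set with the pseudogene Ftl1-ps2 and was left out of the members. The probe sets were chosen by their mean intensity over all 8 arrays, and the genes as a group with earlier results of these data known, so the levels below are a description, and the tests concern how the genes differed between mice.

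All 8 animals were female df/df mice, aged 24 to 26 months when killed, that were given 30% less food than female df/df mice with free access to it. They form 1 group, with 1 Affymetrix U74Av2 array of liver RNA per mouse, so that every comparison is between individual mice. Ames dwarf mice lack several pituitary hormones, growth hormone among them. Every mouse here was a dwarf and had the restricted diet, so the data hold no measure of the effect of either.

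The liver sets the iron level of the body through hepcidin, the peptide encoded by Hamp. Hepcidin leaves hepatocytes for the blood and binds ferroportin (Slc40a1), the iron exporter of macrophages, enterocytes and hepatocytes, which is then internalised and degraded, so that less iron enters the plasma. Transcription of Hamp is known to rise through bone morphogenetic protein (BMP) and SMAD signalling when iron is plentiful and through interleukin 6 and STAT3 in inflammation, and to fall when the marrow needs iron. Transferrin receptor 1 (Tfrc) and ferritin are controlled in turn by iron regulatory proteins that bind their RNA.

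Facts of the whole table that touch these genes are few. Of 12 hepatocyte markers listed, 11 had a probe set and all 11 were bright enough to test, with albumin at an intensity of 29253 ± 4809 (SD, n = 8). A bacteriophage transcript spiked into each sample (CreX) read 15554 to 17571 on the arrays of mice 1 to 4 and 11361 to 12179 on those of mice 5 to 8, so the arrays form 2 sets, and the called slopes are also given within each set. The 3′ to 5′ ratio of the Gapdh control probe sets was 2.67 in mouse 5 and 0.794 to 1.07 in the other mice. Xist, an RNA of female cells, was also lowest in mouse 5 (95.8, against 442 to 1572 in the others), and the reason was not tested. Leaving out mouse 5 ended none of the calls on these 7 genes given below.

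Hamp RNA was lowest in mice 6, 8 and 3. Its intensity was 21191, 22021, 16769, 24152, 22793, 10696, 20056 and 13312 in mice 1 to 8, a mean of 18874 ± 4813 (SD, n = 8). The highest value, in mouse 4, was 2.26 times the lowest, in mouse 6. No value lay between 13312 in mouse 8 and 16769 in mouse 3, nor between 16769 and 20056 in mouse 7. Mouse 3 thus lay between the lowest mice and the rest, and the values ran on without a single wide gap.

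The 250 bases before the Hamp start on mouse chromosome 7 are shown because they hold the 2 kinds of site through which iron and inflammation are known to act on this gene. They are from RefSeq, build GRCm38.p6, on the minus strand, at chr7:30944030-30944279, and those of the neighbouring near-copy Hamp2 are at chr7:30924182-30924431, also on the minus strand. Capitals mark matches to the BMP response element core GGCGCC and to the STAT motif TTCNNNGAA, each searched on both strands, which do not overlap here.
Hamp: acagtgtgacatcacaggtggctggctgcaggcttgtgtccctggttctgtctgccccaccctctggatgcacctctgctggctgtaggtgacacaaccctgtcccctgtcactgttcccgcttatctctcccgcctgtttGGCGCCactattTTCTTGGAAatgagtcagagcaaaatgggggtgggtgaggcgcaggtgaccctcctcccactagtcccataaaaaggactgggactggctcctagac
Hamp2: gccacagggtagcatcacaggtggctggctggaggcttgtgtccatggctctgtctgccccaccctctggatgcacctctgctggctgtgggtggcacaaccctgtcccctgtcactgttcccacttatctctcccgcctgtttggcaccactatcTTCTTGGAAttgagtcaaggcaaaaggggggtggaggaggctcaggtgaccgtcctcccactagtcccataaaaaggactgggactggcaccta
Aligned end to end, the pair share 227 bases (89.7% of the alignment). Hamp held 1 match to each motif, and Hamp2 held 1 to the STAT motif. Of 32851 RefSeq promoter windows of this length, 9.59% held the BMP core and 7.02% the STAT motif. Among the other genes with windows (Cp, Tfrc and Fth1 with 2 each, Ftl1 and Hfe with 1), the BMP core was found in 1 Tfrc window and the STAT motif in none. The antioxidant response core TGACNNNGC was found in the Hfe window and in 10.2% of all windows. A match is a match of letters and not evidence of binding. Whether the Hamp probe set also reads RNA of Hamp2 was not tested.

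**Figure D1:**
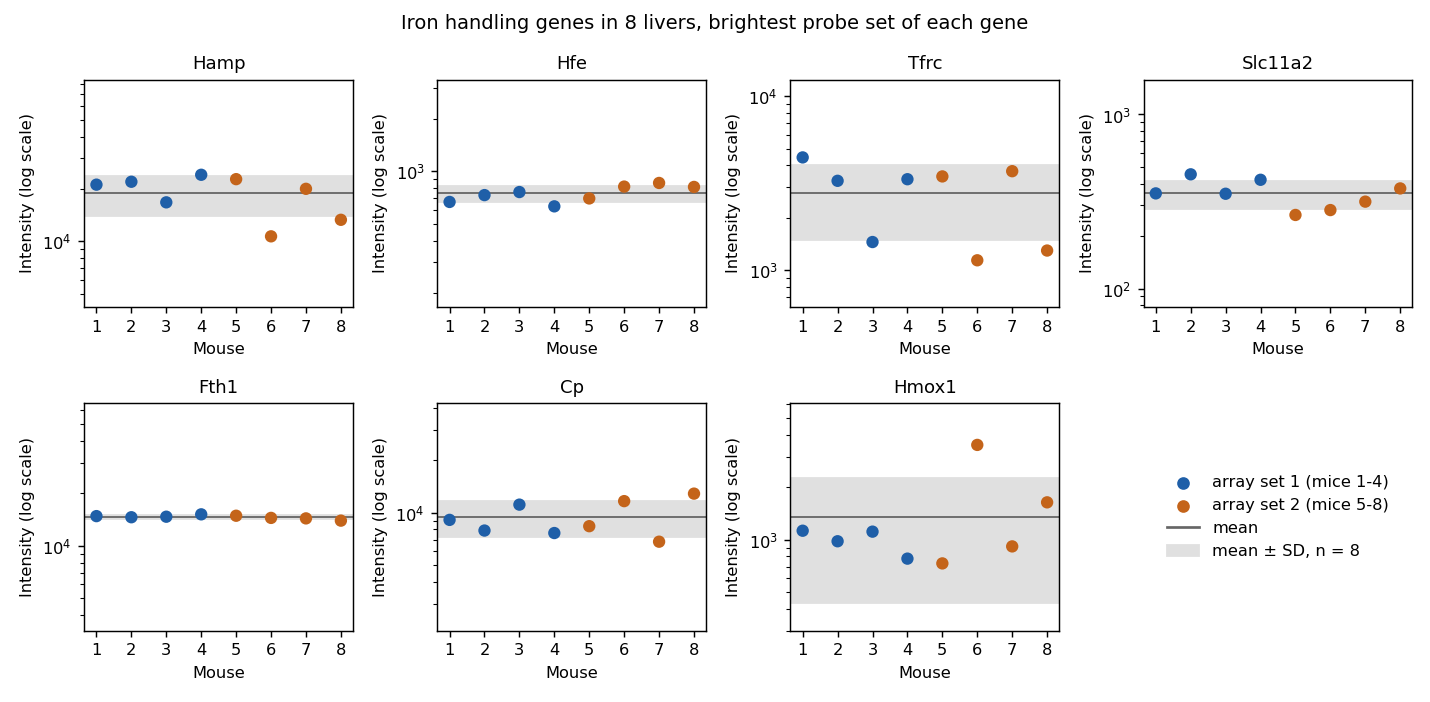
Intensity (log scale, each axis spanning the same fold range) of 7 iron handling genes in each of 8 mice, 1 point per mouse, with the mean as a line and mean ± SD as a grey band. Hamp and Tfrc are lowest in mice 3, 6 and 8, Hmox1 is highest in mouse 6 (3501), and Fth1 stays between 13946 and 15158.

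Hfe encodes the class I-like protein that reports iron saturation of transferrin to the hepcidin pathway. Its intensity was 667, 731, 761, 630, 699, 818, 858 and 814 in mice 1 to 8 (747 ± 79.9, SD, n = 8). Mice 6, 7 and 8 read highest and mouse 4 lowest, a range of 1.36-fold.

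Tfrc, the receptor that brings transferrin-bound iron into cells, split the livers into a low and a high set. The bright Tfrc probe set read 1452, 1140 and 1297 in mice 3, 6 and 8. In mice 1, 2, 4, 5 and 7 it read 4448, 3264, 3333, 3459 and 3706.5. The mean was 2763 ± 1270 (SD, n = 8) and the range 3.9-fold. The other probe sets for Tfrc did not show this split. The second probe set read 94.3 ± 43.2, too dim to test, with its highest values in mice 6, 7 and 8 (138, 132 and 127.5) and 15.8 in mouse 3. The control probe set for the 3′ end of the same transcript read 157 ± 54.4, from 80.8 in mouse 5 to 227.5 in mouse 7. The Tfrc results below therefore rest on 1 probe set. The others do not bear it out but are too dim to decide, and which of them follows Tfrc RNA was not tested.

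Slc11a2 (DMT1) moves ferrous iron out of endosomes and from the gut lumen. The brighter of its probe sets read 352, 453, 350, 421, 265, 282, 316 and 376 in mice 1 to 8 (352 ± 64.8, SD, n = 8), lowest in mouse 5 and highest in mouse 2. The other one read 285.5, 352, 319, 242, 234, 405, 230.5 and 416, highest in mice 8 and 6. The 2 probe sets thus ordered the mice differently, and the plot of genes with several probe sets shows both.

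**Figure D2:**
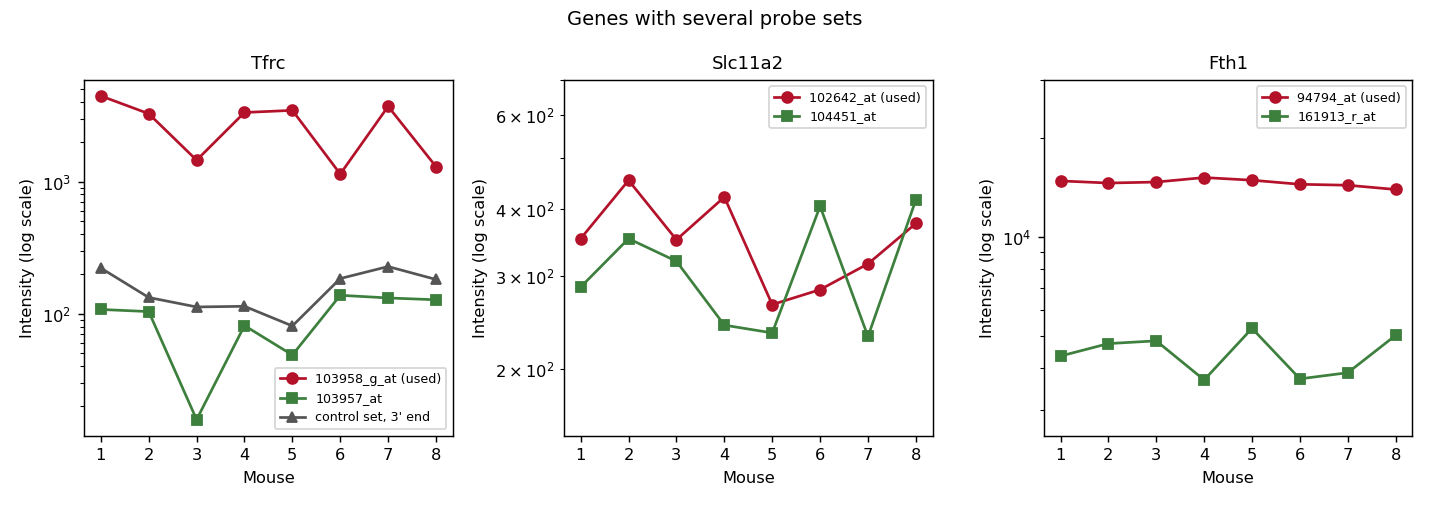
Intensity (log scale) by mouse of each probe set for Tfrc, Slc11a2 and Fth1, with the set used for the gene in red circles, the other in green squares and, for Tfrc, the 3′ control set in grey triangles. The low Tfrc values of mice 6 and 8 appear in the bright probe set alone, and the Slc11a2 sets differ most in mice 4 and 6.

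Fth1, the heavy chain of ferritin that oxidises iron for storage, was nearly the same in every liver. It read 14806, 14589, 14690.5, 15158, 14881, 14461, 14367 and 13946 in mice 1 to 8, a mean of 14612 ± 367 (SD, n = 8) and a coefficient of variation of 2.51%. On the log2 scale its SD between mice was 0.036, the lowest of the 6265 tested probe sets, ahead of 0.046 for the next. Among the 134 tested probe sets averaging 10000 or more, the median SD was 0.21. The second Fth1 probe set read 4449 ± 627, with an SD of 0.21 on the log2 scale. The SD of the first was 0.12 after median scaling and 0.10 after quantile normalization, so it was narrowest on the deposited scale. The probe set shared by Ftl1 and Ftl1-ps2, for the light chain, read 16267 ± 1578, from 13347 in mouse 5 to 18102 in mouse 1.

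Cp, ceruloplasmin, is a copper ferroxidase of plasma that loads iron onto transferrin and is an acute phase protein. It read 9082, 7887, 11113, 7631, 8356, 11640, 6805 and 12855 in mice 1 to 8 (9421 ± 2179, SD, n = 8). Mice 8, 6 and 3 were the highest and mouse 7 the lowest, with a range of 1.89-fold.

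Hmox1, heme oxygenase 1, frees iron from heme and is abundant in macrophages that clear red cells. It read 1125, 979, 1111, 778, 730, 3501, 914 and 1637.5 in mice 1 to 8 (1347 ± 915, SD, n = 8). Mouse 6 stood above all others, mouse 8 came next, and the other 6 mice lay between 730 and 1125. The range was 4.8-fold.

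The spread between mice was tested by an F test of each probe set's variance against the variance that limma fitted at its brightness. Benjamini-Hochberg adjustment was applied over all tested probe sets. None of the 6265 probe sets passed (0 calls, percent called 0; lowest adjusted p = 0.265), while 400 (6.38%) had an unadjusted p under 0.05. Of the 7 iron genes Tfrc (SD 0.79 on the log2 scale, unadjusted p = 0.0118, adjusted p = 0.572) and Hmox1 (SD 0.73, unadjusted p = 0.0144, adjusted p = 0.576) were among those 400. Without mouse 6 the SD of Hmox1 was 0.39 (adjusted p = 0.915) and that of Tfrc 0.70 (adjusted p = 0.537). With all mice the SDs of Tfrc and Hmox1 lay at the 95.3rd and 94.7th percentile of all tested probe sets, whose median SD was 0.24. Hamp had an SD of 0.42 (84.2nd percentile, unadjusted p = 0.101), Cp 0.33, Slc11a2 0.27 and Hfe 0.16. In the plot of spread against brightness, Hamp ranks 11th by SD among the 134 brightest probe sets.

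**Figure D3:**
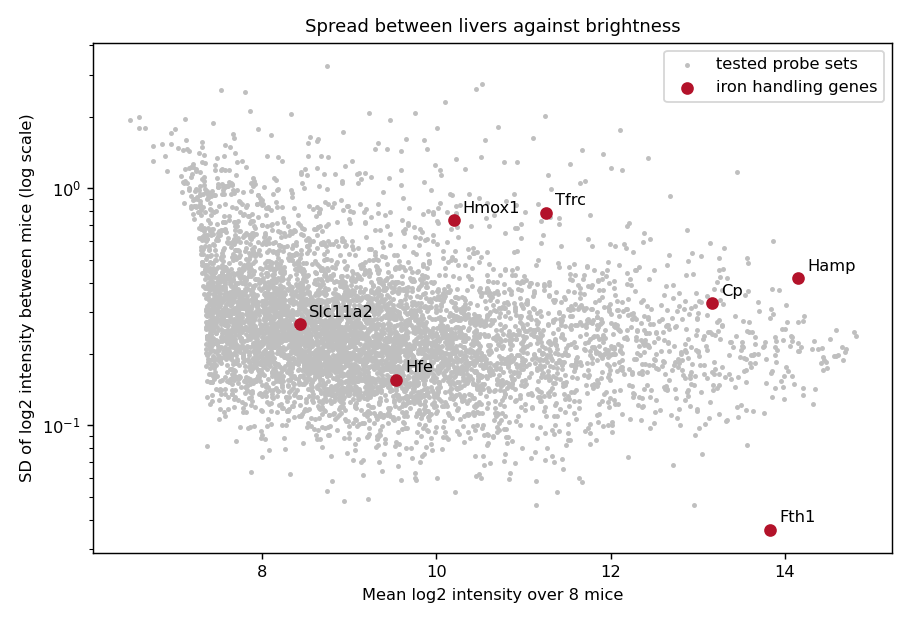
SD of log2 intensity between 8 mice (log scale) against mean log2 intensity, 1 point per tested probe set (grey), with 7 iron handling genes in red. Fth1 has the lowest SD of all 6265 points (0.036), and Tfrc (0.79) and Hmox1 (0.73) lie at the 95.3rd and 94.7th percentile of all points.

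The next question was which genes followed the RNA level of Hamp between livers. Each probe set's log2 intensity was fitted on the log2 intensity of Hamp over the 8 mice with limma, where a slope of 1 is an equal proportional change. Tfrc rose with Hamp (slope 1.70 ± 0.28, SE, n = 8 mice; limma adjusted p = 0.00509). Hmox1 fell with it (slope -1.65 ± 0.21; limma adjusted p = 0.0013). Cp fell with it by a smaller slope (-0.65 ± 0.17; limma adjusted p = 0.0386). The slopes of Hfe (-0.25 ± 0.14, limma adjusted p = 0.326), Slc11a2 (0.21 ± 0.23, adjusted p = 0.667) and Fth1 (0.06 ± 0.09, adjusted p = 0.782) did not pass. So 1 of 6 iron genes had a called positive slope, against 3.13% of all 6264 probe sets, and 2 of 6 a called negative slope, against 5.4% of all. These background shares depend on the scaling: of the 534 calls 36.7% were positive, whereas with a common median 591 of 868 (68.1%) were.

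These slopes leaned on mouse 6. Without it 3 probe sets of 6220 were called in place of 534, and the Tfrc slope was 2.03 (limma adjusted p = 0.0684), the Hmox1 slope -1.16 (adjusted p = 0.0748) and the Cp slope -0.91 (adjusted p = 0.117). With no filter on brightness the Tfrc call was lost as well (adjusted p = 0.0507). Cp was also not called without mouse 1, 2, 4 or 8, nor in 3 other settings. Within the array sets the Tfrc slope was 2.55 in mice 1 to 4 and 1.72 in mice 5 to 8. The Hmox1 slope was -0.82 and -1.95 in the same sets, and the Cp slope -1.07 and -0.69, so each kept its sign in both. Mice 5 to 8 include mice 6 and 8, so the sign there is not separate from the fit on all mice. No test was run within a set.

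**Figure D4:**
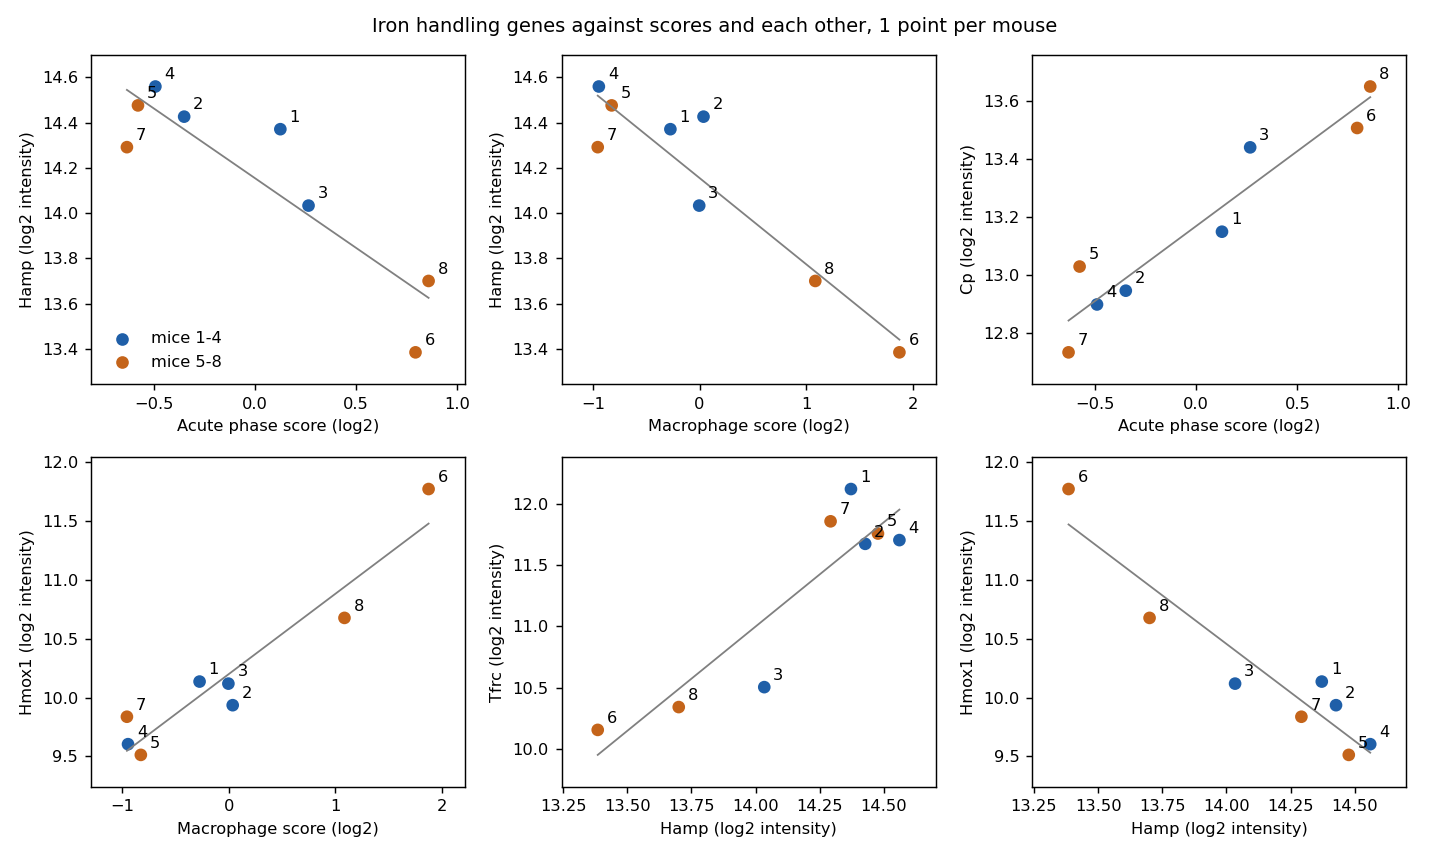
Each panel sets 1 iron handling gene (log2 intensity) against a score or against Hamp, with mice numbered, coloured by array set, and a least-squares line. Mice 6 and 8 lie at the high end of both scores with the lowest Hamp values (10696 and 13312), and the Tfrc points fall in a low set (mice 3, 6 and 8) and a high set.

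Inflammation is known to act on hepcidin, so the iron genes were set against an acute phase score, the mean log2 deviation of 19 liver acute phase genes such as Saa2, Orm1 and Lcn2, none of them a member. The score was 0.13, -0.35, 0.27, -0.49, -0.58, 0.80, -0.63 and 0.86 in mice 1 to 8, highest in mice 8 and 6. Of the 20 listed genes with a probe set, 15 were highest in mouse 6 or 8. The exceptions were Orm3, Fga, Itih4, Pzp and A2m, which was too dim to test. Pzp was lowest in mice 6 and 8 (18252 and 18291). Hamp was lower where the score was higher (slope -0.62 ± 0.12 per log2 unit of score, limma adjusted p = 0.0112). Tfrc fell with the score as well (slope -1.09 ± 0.24, limma adjusted p = 0.0248). Cp rose with it (slope 0.52 ± 0.09, limma adjusted p = 0.00608), and so did Hmox1 (slope 1.03 ± 0.21, limma adjusted p = 0.0165). Hfe (0.10 ± 0.11), Fth1 (-0.04 ± 0.07) and Slc11a2 (-0.04 ± 0.16) did not pass, with limma adjusted p of 0.645, 0.839 and 0.934. Of the 7 genes 2 had a called positive slope, against 5% of 6244 probe sets, and 2 a called negative slope, against 2.87%.

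Over the 8 mice Hamp and the acute phase score had a Pearson r of -0.891 (exact two-sided permutation p = 0.00424 over 40320 pairings; adjusted over 2 relations, 0.00424) and a Spearman rho of -0.714 (exact permutation p = 0.0576; adjusted, 0.0831). Without mice 6 and 8, the farthest from the median score, r was -0.660 (exact permutation p = 0.15, n = 6) and the slope -0.32. The relation thus passed the test only with those 2 mice, although its direction was the same without them. Within mice 1 to 4, which include neither, the Hamp slope was -0.53, and within mice 5 to 8 it was -0.58. In the same sets the slopes were -0.87 and -1.08 for Tfrc, 0.63 and 0.49 for Cp, and 0.61 and 1.06 for Hmox1. Each kept its sign, but mice 5 to 8 include both mouse 6 and mouse 8. The Hamp call was lost without mouse 6 (slope -0.48, limma adjusted p = 0.088), without mouse 8 (-0.66, adjusted p = 0.0535) and with no filter on brightness (-0.65, adjusted p = 0.0695). The Tfrc call was lost without mouse 4, 6, 7 or 8 (slopes -1.11, -0.97, -1.12 and -1.10; limma adjusted p = 0.0524, 0.16, 0.0523 and 0.113) and with no filter on brightness (-1.15, adjusted p = 0.128). The Cp call held without mouse 6 (slope 0.55, limma adjusted p = 0.0312) and was lost without mouse 8 alone (0.50, adjusted p = 0.0535). The Hmox1 call held with any 1 mouse left out, with a slope of 0.66 without mouse 6 (limma adjusted p = 0.0249), and was lost with no filter on brightness (adjusted p = 0.109).

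Macrophages recycle iron from red cells and carry much of the heme oxygenase of the liver, so the genes were also set against a macrophage score. Of 23 marker symbols listed, among which Adgre1 and Emr1 name the same gene, 19 had a probe set and 16 were bright enough for the score. Of the 19, 17 were highest in mouse 6 or 8, and none had a value of 0. The exceptions were Clec4f and Fcgr3. Clec4f, which is in the score, was highest in mouse 2 (1362) and read 1221 in mouse 6 and 747 in mouse 8. Fcgr3, too dim for the score, was highest in mouse 3 (86.7). Fcer1g averaged below the floor of 37.2. The summed intensity of the 19 ran from 6740 in mouse 4 to 46073 in mouse 6, and the score was -0.27, 0.04, -0.00, -0.94, -0.82, 1.87, -0.95 and 1.09 in mice 1 to 8. In whole liver RNA, more cells of a type and more RNA per cell cannot be told apart.

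Hmox1 rose with the macrophage score (slope 0.68 ± 0.08, limma adjusted p = 0.000619), the lowest adjusted p of any iron gene in these fits. Hamp fell with it (slope -0.38 ± 0.06, limma adjusted p = 0.00302), and so did Tfrc (-0.65 ± 0.14, limma adjusted p = 0.0238). Cp rose (0.27 ± 0.07, limma adjusted p = 0.0362), while Hfe (0.07 ± 0.06), Fth1 (-0.02 ± 0.04) and Slc11a2 (-0.03 ± 0.10) did not pass (adjusted p = 0.539, 0.823 and 0.898). Again 2 of 7 had a called positive slope, against 5.19% of 6248 probe sets, and 2 a called negative one, against 2.96%. Both scores were highest and Hamp was lowest in mice 6 and 8. These slopes, those on the acute phase score and those on Hamp are therefore not separate evidence. The part of macrophages in the Hmox1 and Cp values was not tested. The dimmer Slc11a2 probe set also rose with both scores (slopes 0.50 ± 0.13 and 0.32 ± 0.07; limma adjusted p = 0.0421 and 0.0192), in contrast to the brighter one.

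Over the 8 mice Hamp and the macrophage score had a Pearson r of -0.929 (exact two-sided permutation p = 0.00308; adjusted over 2 relations, 0.00424) and a Spearman rho of -0.667 (exact permutation p = 0.0831; adjusted, 0.0831). Without mice 6 and 8, r was -0.509 (exact permutation p = 0.322, n = 6) and the slope -0.20, so this relation too passed the test only with those 2 mice. Within mice 1 to 4 the Hamp slope was -0.33 and within mice 5 to 8 it was -0.36. In the same sets the Tfrc slope was -0.57 and -0.64 and the Cp slope 0.29 and 0.27. The Hmox1 call held in all 17 alternative settings, with slopes from 0.52 to 0.75. Its slope was 0.44 within mice 1 to 4 and 0.69 within mice 5 to 8, and without mouse 6 it was 0.52 (limma adjusted p = 0.027). Without mouse 6 the Hamp slope was -0.37 (limma adjusted p = 0.0911), the Tfrc slope -0.77 (adjusted p = 0.148) and the Cp slope 0.39 (adjusted p = 0.0861). The Tfrc call was also lost without mouse 4, 7 or 8 (slopes -0.68, -0.65 and -0.60; limma adjusted p = 0.0501, 0.0555 and 0.0961) and with no filter on brightness (-0.71, adjusted p = 0.101), and the Cp call in 10 of 17 settings, among them without mouse 1, 4, 7 or 8 (0.27, 0.26, 0.24 and 0.23; limma adjusted p = 0.0584, 0.0874, 0.0793 and 0.145).

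**Figure D5:**
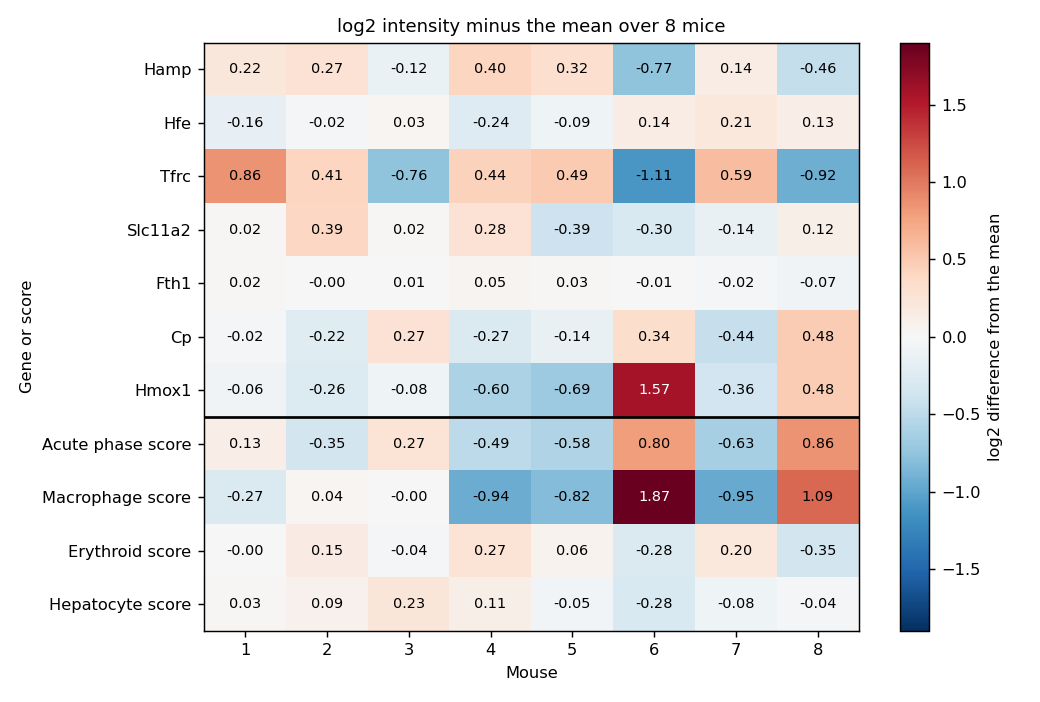
Deviation of log2 intensity from each gene's own mean for 7 iron handling genes (above the line) and the same deviation averaged over 4 marker lists (below it), with mice in columns. Mouse 6 has the lowest Hamp (-0.77) and Tfrc (-1.11) and the highest Hmox1 (1.57) and macrophage score (1.87), and mouse 8 follows it in each.

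Blood left in the liver and the make-up of hepatocytes were read from 2 further lists. The erythroid score (6 genes) was lowest in mice 8 and 6 (-0.35 and -0.28), highest in mouse 4 (0.27), and its list had a summed intensity from 9140 to 19164, with no member at 0. The globin gene Hba-a1 was low in mice 8, 1 and 6 (4393, 5379 and 5819) and highest in mouse 5 (11685). Mouse 1 had the highest Tfrc (4448) and, over the 6 genes, an erythroid score of -0.0009. Tfrc and Hamp were low in mice 8 and 6, and the part of red cells in those values was not tested. Of the 6 erythroid genes, Klf1, an erythroid transcription factor, rose with Hamp (slope 0.75 ± 0.17, limma adjusted p = 0.0222), and the globin genes Hba-a1 and Hbb-b2 fell with the acute phase score (slopes -0.75 ± 0.16 and -0.78 ± 0.18, limma adjusted p = 0.0197 and 0.0255). The hepatocyte score (11 genes) ran from -0.28 in mouse 6 to 0.23 in mouse 3, and Hamp deviated from its own mean by -0.77 to 0.40 on the same log2 scale. Of its 11 genes, Fabp1, a fatty acid binding protein, rose with Hamp (slope 0.51 ± 0.12, limma adjusted p = 0.0233) and fell with the macrophage score (slope -0.21 ± 0.05, limma adjusted p = 0.0228). Called or not, 9 of the 11 had a positive slope on Hamp (median 0.30, against 0.03 over all probe sets). On the acute phase and macrophage scores 2 of the 11 slopes were positive (medians -0.14 and -0.11, against -0.02 and -0.01). Over all probe sets 8.52% were called on Hamp, 7.86% on the acute phase score and 8.15% on the macrophage score. The 1 call of 11 hepatocyte genes on Hamp and on the macrophage score lies near those shares. With 6 erythroid genes, 1 call on Hamp and 2 on the acute phase score are no result about that list.

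Of 30 hepcidin control symbols, among which Hjv and Hfe2 name the same gene, 26 had a probe set and 15 were bright enough to test. By limma 0 of the 15 genes passed the test of spread (1 at an unadjusted p under 0.05). Slopes on Hamp, the acute phase and the macrophage score were called for 0 of them, against 8.52%, 7.86% and 8.15% of all probe sets. At an unadjusted p under 0.05 the slopes of 2, 3 and 3 of them passed, where 23.1%, 23% and 23.4% of all probe sets did. With 15 genes these counts lie near the background and are no result about the list. Their median SD was 0.24 on the log2 scale, the same as over all tested probe sets. Il6ra, the interleukin 6 receptor, had the largest SD (0.98), from 125 in mouse 6 to 845 in mouse 3. Smad4, the common SMAD, and Il6st, the shared signal transducer of the interleukin 6 family, followed with SDs of 0.32 each. Several genes were picked after their values were seen because they report on the same pathway. Tfr2, the hepatic transferrin sensor, stayed between 2056 and 2360. Id1, a BMP target, was highest in mouse 6 (388), with 385 in mouse 4 and 382 in mouse 2, and read 263 in mouse 8 and 234 in mouse 5. Stat3 read 1821 in mouse 6 and 980 to 1295 elsewhere, and Socs3, a STAT3 target too dim to test, read 292 in mouse 6 and 71.0 to 162 elsewhere. Bmp6, the ligand that couples iron to Hamp and also too dim to test, was lowest in mice 3 and 8 (30 and 67.4) and lay between 107 and 202 in the others. The 2 genes at an unadjusted p under 0.05 on Hamp were Cebpa and Jak2. Their slopes were 0.52 ± 0.15 and -0.58 ± 0.23 (limma adjusted p = 0.0592 and 0.153). Cebpa was lowest in mice 8 and 6 (7613 and 8151) and read 9077 to 13072 elsewhere.

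Among other genes of iron transport and storage, 16 of 28 had a probe set and 12 were tested. Lcn2, lipocalin 2, which binds iron-carrying siderophores, had the widest spread (SD 2.31 on the log2 scale) and fell with Hamp (slope -4.93 ± 0.90, limma adjusted p = 0.0146). Mice 6 and 8 had 9515 and 9797, the other mice 180 to 2451. Iscu, the scaffold on which iron-sulfur clusters are built, rose with Hamp (slope 0.71 ± 0.18, limma adjusted p = 0.0368) and was lowest in mice 6, 8 and 3 (166.5, 197 and 217), where the other mice had 257 to 314. These were the 2 called of 12 on Hamp, 1 in each direction, against 8.52% of all probe sets. Lcn2 also rose with the macrophage score (2.05, limma adjusted p = 0.00981), the 1 call of 12 there against 8.15% of all probe sets, and it belongs to the acute phase list. On the acute phase score 0 of 11 passed by limma (3 at an unadjusted p under 0.05), against 7.86% of all probe sets, so the counts of this list lie near the background. Epas1, the hypoxia factor HIF-2α, and Slc22a17, a lipocalin receptor, came next by spread (SDs 0.49 and 0.46). The RNA-binding regulators of Tfrc and ferritin were split by brightness: Ireb2 read 356 to 774, and Aco1 was too dim to test.

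Of 14 genes of heme capture and breakdown, 11 had a probe set, all 11 were tested, and 0 passed any of the 4 tests by limma (at an unadjusted p under 0.05, 0 in the test of spread, 1 on Hamp and 2 on each score). Against the shares over all probe sets given for the hepcidin control genes, 0 of 11 lies near the background. Blvra, biliverdin reductase, had the largest SD (0.50), from 176 in mouse 4 to 473 in mouse 2, then Bach1, a heme-sensing repressor of Hmox1 (0.45), from 533 in mouse 1 to 1464 in mouse 6, and Hpx, hemopexin (0.29). Haptoglobin (Hp) and Hpx were highest in mouse 3 (29120 and 26981) and not in mice 6 and 8 (19276 and 21792 for Hp). Neither was in the acute phase list, and their slopes on its score were 0.10 ± 0.12 and 0.25 ± 0.14 (limma adjusted p = 0.699 and 0.353). Hmox2, the constitutive heme oxygenase, read 195 to 313.

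The genes most like each iron gene over the 8 mice were taken as those with the highest Pearson r among 4869 tested genes, as a description. Those nearest Hamp were Gamt (r = 0.987, rho = 1), an enzyme of creatine synthesis, Chd7 (r = 0.986), a chromatin remodeller, the carboxylesterase Ces1d (0.980), carbonic anhydrase 3 (Car3, 0.979) and the lipase Mgll (0.977). Gamt was lowest in mice 6, 8 and 3 (2277, 2460 and 2945), where the other mice had 3460 to 4197. Those nearest Hmox1 were the Fc receptor Fcgr1 (r = 0.986), Cd300c2 (0.981) and the macrophage marker Cd68 (0.979), which was highest in mice 6 and 8 (1544 and 940.5) and lay between 328 and 466 in the others. Nearest Cp were the chemokine Ccl9 (0.978), Plscr1 (0.976) and Mfge8 (0.974), and nearest Tfrc were Qrsl1 (0.975), Qdpr (0.966) and Cdadc1 (0.965). Nearest Fth1 were Eno3 (0.966), Zfp639 (0.918) and Gnmt (0.912). For Slc11a2 they were Cab39l (0.944), Lsm7 (0.931) and Hipk2 (0.928), and for Hfe Mcrip1 (0.932), Frmd8 (0.900) and Ppp6r3 (0.889). All mice share 1 table and scaling, and no p is given for these values.

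Livers with much Iigp1, an interferon-induced GTPase, overlapped with these. Iigp1 read 15220, 14442 and 11521 in mice 6, 8 and 3, the 3 mice with the lowest Hamp, but also 10908 in mouse 2, whose Hamp (22021), Tfrc (3264) and Hmox1 (979) were close to those of mice with little Iigp1.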

How the data were processed

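Liver RNA of 8 mice was hybridised to Affymetrix U74Av2 arrays, per the labels. The deposited values are linear probe set intensities, 1 per array, with the method of probe summary not given in the sources used here. Trimmed means differed by 0.00455% between arrays (coefficient of variation), so the authors' intensities count as already scaled. Values were raised to 37.2 (25th percentile) and converted to log2, and 6265 probe sets averaging 165.2 (the median) or more, without 66 control sets, were tested. Of the probe sets, 10833 carried 1 symbol in the annotation, 396 carried several and 1193 had no symbol. Spread and slopes were tested with limma 3.58.1 in R 4.3.3 (trend, robust, Benjamini-Hochberg at 0.05) over all tested probe sets. A score is the mean over a list's tested genes of log2 intensity minus the gene's mean, and a list's own genes stayed out of its fit. Named were all members, genes of the 3 pathway lists (hepcidin control, iron transport and storage, heme) past a test, the 3 tested genes of each of these with the largest SD, and the nearest genes by r. Marker genes and others were named after their values were seen. Members and lists were chosen with earlier results of these data known. The tests were checked on simulated data. The spread test's prior degrees of freedom (3.80, the largest fitted) were set after a first version, already run on these data, had failed that check. With 8 arrays their number limits the precision. Sequences are RefSeq's. Alternatives were floor, scaling, filter, probe set choice, trend, score, array set and each mouse left out.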

Additional observations from a re-analysis of the deposited data

How the results depend on the processing

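Mouse 6 and, less so, mouse 8 set the number of calls. Leaving out 1 mouse at a time gave 3 to 551 called probe sets for the slopes on Hamp (534 with all mice), 146 to 469 for the acute phase score (491) and 163 to 544 for the macrophage score (509), and 0 each time for spread (limma). The lowest counts were without mouse 6 (3, 146 and 163), then without mouse 8 (237, 191 and 275), and the acute phase count without mouse 4 was 314. Scaling arrays to a common median, which shifts log2 values by -0.10 in mouse 8 to 0.18 in mouse 5, gave 868 calls on Hamp and turned the share of positive slopes to 68.1%, against 36.7% as deposited. That share was 48.4% against 63.5% for the acute phase score and 46.8% against 63.7% for the macrophage score. With no filter on brightness the acute phase score gave 215 calls. The called slopes of Hamp, Tfrc, Cp and Hmox1 kept their sign in all 16 alternatives on Hamp and all 17 on each score.

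Only slopes that were never called changed sign. Under the common median the Hfe slope on the acute phase score was -0.0095. Under quantile normalization the Fth1 slopes were -0.11 on Hamp, 0.068 on the acute phase score and 0.056 on the macrophage score. The Slc11a2 slopes were -0.23, 0.27 and 0.15 when both probe sets were averaged, and -0.019, 0.027 and 0.028 with array sets as a block, an alternative chosen after seeing the data. Leaving out 1 mouse moved them between -0.014 and 0.36 on Hamp, -0.16 and 0.10 on the acute phase score and -0.093 and 0.14 on the macrophage score. The block otherwise ended only the Cp call on the macrophage score (limma adjusted p = 0.058). No paired analysis was possible because there is 1 group. For dim probe sets the signal over background limits what can be seen.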
